A study of Sus scrofa with 32 samples.

Results

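Absorptive cells of the small intestine take up fatty acids and cholesterol, bind them inside the cell and export them as chylomicrons, and those of the ileum also recover bile acids. The enterocyte genes of lipid and bile acid handling, 9 in number, were followed here in single cells of the pig ileum: APOA1, APOA4 and APOB, which encode apolipoproteins of exported particles; MTTP, the transfer protein that loads lipid onto APOB; FABP1 and FABP2, the liver-type and intestinal fatty acid binding proteins; RBP2, which carries retinol in the cytosol; FABP6, the ileal bile acid binding protein; and FGF19, the hormone that bile acids induce in ileal cells and that restrains bile acid synthesis in the liver. They were listed by symbol and all 9 were among the 25880 genes of the count tables. In the small intestine, FABP6 marks the ileum, whereas the apolipoproteins and MTTP are known for their high levels further up.

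Cells came from 2 mixed-breed pigs of 7 weeks, pig 1 labelled female and pig 2 male, with no treatment. From each pig the ileum was dissected into tissue without Peyer's patches (non-PP), tissue with Peyer's patches (PP) and a whole cross section (whole ileum), and each dissection gave 1 library (n = 2 per dissection). The cell suspension joined an epithelial fraction with digested tissue and was then taken from a density gradient that favours lymphocytes, and epithelial cells were a minority. Blood mononuclear cells (PBMC) of the same pigs gave 2 further libraries. A cell was called epithelial when it held at least 2 UMIs (counted molecules) each of EPCAM and KRT8, and passing when it held at least the UMI minimum stated for the study and 550 genes, with a mitochondrial share of UMIs no higher than the study's limit. By this rule 616 of 35386 passing ileal cells were epithelial: 233 and 66 in the non-PP libraries of pigs 1 and 2, 128 and 45 in PP, and 53 and 91 in whole ileum. A further 622 barcodes of at least 500 UMIs met the epithelial gate but failed a threshold. Another 2186705 barcodes held only 1 to 100 UMIs, too few for a cell. Their UMIs were taken as RNA free in the suspension, which was not tested.

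The libraries held between 21134542 and 40111934 UMIs. The library labelled whole ileum pig 1 goes against its label: 4 Y-linked genes stood at 202 CPM (UMIs per 1000000 UMIs of the library) there, near the 178 to 225 of the pig 2 libraries and far above the 0.689 and 2.57 of non-PP and PP pig 1. Its label was kept, and results that rest on it are given without it. Of the passing epithelial barcodes, between 1 and 18 per library carried a barcode sequence that was also a barcode of at least 500 UMIs in another library. PTPRC, the pan-leukocyte gene, gave a UMI in 140 of the 616 cells, and a doublet caller marked 3. Median depth was 8321 to 13113.5 UMIs in epithelial cells and 2503 to 3016 in the other passing cells. Defining markers of the epithelium were present: all 10 measured epithelial markers and 11 to 13 of 13 absorptive enterocyte markers were detected in each of the 6 libraries. The 10 include EPCAM and KRT8, whose detection the gate fixed in advance.

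The positions below are those of the Sscrofa11.1 build in RefSeq. APOA4 (ENSSSCG00000040689) at chr9:44201587-44204072 and APOA1 (ENSSSCG00000030921) at chr9:44216481-44218360 are near neighbours with APOC3 (chr9:44211171-44213538) between them. APOB (ENSSSCG00000008595) lies at chr3:117250096-117316200 and MTTP (ENSSSCG00000009179) at chr8:120820660-120871468. FABP1 (ENSSSCG00000008214) lies at chr3:57850511-57854966, FABP2 (ENSSSCG00000037272) at chr8:104464342-104468059 and RBP2 (ENSSSCG00000011663) at chr13:80321024-80346032. FABP6 (ENSSSCG00000017037) lies at chr16:63297594-63303675 and FGF19 (ENSSSCG00000012871) at chr2:3583027-3586985.

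FABP6 stood far above every other gene of the group in passing epithelial cells. Its level in CPM, the UMIs of a gene per 1000000 UMIs of the cells summed, was 107919 and 48035 in non-PP pigs 1 and 2, 33631 and 24914 in PP, and 19761 and 25922 in whole ileum. Up to 10.8% of all UMIs of epithelial cells therefore came from this gene, and the lowest library still gave 1.98%. Both non-PP libraries lay above the other 4. Since 3' UMI counts take 1 count per molecule whatever its length, levels of different genes were compared without a length correction. By the median over the 6 libraries, FABP6 (29776 CPM) was followed by FABP1 (359), FABP2 (248), APOA1 (147), RBP2 (31.6), APOA4 (29.3), MTTP (13.6) and APOB (2.04), with FGF19 at 0. Neighbours in this order from FABP1 down to MTTP had overlapping ranges over the libraries.

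Of the fatty acid binding proteins, FABP2 stood at 1673 and 353 CPM in non-PP, 288 and 117 in PP, and 150 and 207 in whole ileum. The 2 non-PP libraries were the highest, and that of pig 1 lay well apart from the rest. FABP1 stood at 886 and 199 in non-PP, 511 and 299 in PP, and 418 and 179 in whole ileum, so that the dissections overlapped. RBP2 showed the widest range, with 272 CPM in non-PP pig 1 against 31.8 in non-PP pig 2, 60.5 and 7.09 in PP, and 8.16 and 31.5 in whole ileum.

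Genes of chylomicron assembly were low in these ileal cells. APOA1 reached 282 and 187 CPM in non-PP, 184 and 60.2 in PP, and 68.6 and 111 in whole ileum. For APOA4 the levels were 24.5 and 35.6, 80.1 and 15.9, and 26.1 and 32.5 in the same order, with PP pig 1 highest. In PP pig 1 a single cell held 76 of 131 APOA4 UMIs, and without it the level was 33.8, below non-PP pig 2. MTTP gave 65.2 and 16.5, 20.8 and 10.6, and 6.53 and 7.11. APOB gave 18 UMIs over all 616 cells, and no UMI in PP pig 2 and whole ileum pig 2, which allows levels of up to 5.32 and 3.05 CPM. FGF19 gave 2 UMIs in all, 1 in each non-PP library; the 4 libraries at 0 allow levels of up to 1.83 to 5.32 CPM. FGF19 was therefore not detectable at this depth in PP and whole ileum cells, and over all barcodes of the 6 libraries it gave 25 UMIs against 1289631 of FABP6.

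**Figure D1:**
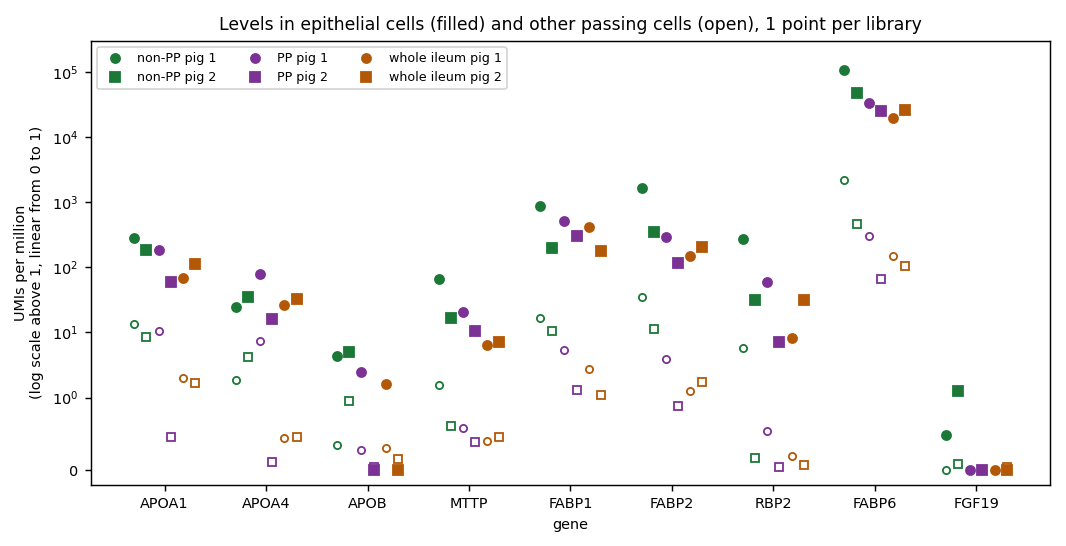
Level of each gene (CPM, log scale above 1 and linear from 0 to 1) in passing epithelial cells (filled) and in all other passing cells (open), with 1 point per library, green for non-PP, purple for PP and orange for whole ileum, circles for pig 1 and squares for pig 2. FABP6 lies between 19761 and 107919 in epithelial cells, above the other 8 genes in every library, and FGF19 lies near 0 throughout.

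FABP6 also led by the share of epithelial cells with at least 1 UMI. It was seen in 82.4% to 100% of passing epithelial cells per library, FABP2 in 30.2% to 68.7%, FABP1 in 28.6% to 62.7%, APOA1 in 13.3% to 46.4%, RBP2 in 6.67% to 44.6%, APOA4 in 8.58% to 28.8% and MTTP in 4.40% to 29.2%. With each cell thinned to the UMI minimum of a passing cell, the ranges were 61.5% to 96.6% for FABP6, 6.67% to 49.4% for FABP2 and 7.55% to 16.7% for APOA1. FABP6 was widely seen outside the gate too: in the other passing cells, which are mostly lymphocytes, 7.95% to 88.9% held a FABP6 UMI at the same thinned depth. The other members gave far lower shares there, with a median over the libraries of 0.560% for FABP1 and 0.279% for APOA1 at that depth. How much of the FABP6 in the other passing cells was free RNA was not tested. Barcodes with at least 100 FABP6 UMIs held from 4.70% (PP pig 1) to 28.9% (non-PP pig 2) of the FABP6 UMIs of these cells. Intervals and limits of this kind cover counting error only.

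By level, FABP6 was 49.0 times as high in epithelial as in other passing cells in non-PP pig 1 and 373 times in PP pig 2, with the other 4 libraries between these values. For APOA1 the same ratio ran from 17.4 in PP pig 1 to 131 in PP pig 2. In PP pig 1 it rested on 1 barcode outside the gate, described below, which held 69.7% of the APOA1 UMIs of the other passing cells.

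FABP6 was not spread evenly over epithelial cells. In non-PP pig 1 the middle cell held 4.40% of its UMIs as FABP6, with 10th and 90th percentiles of 0.132% and 22.2%. The median was 1.09% in non-PP pig 2, 0.0970% and 0.382% in PP, and 0.0516% and 0.178% in whole ileum. Cells with at least 1% made up 57.1% and 50% in non-PP, 22.7% and 44.4% in PP, and 26.4% and 39.6% in whole ileum, so that PP pig 2 and non-PP pig 2 were close. At or above 10%, the shares were 46.4% and 27.3% in non-PP, 14.8% in PP pig 1 and 5 of 45 cells in PP pig 2, and 11.3% and 8.79% in whole ileum, where both non-PP libraries were highest. The highest cell, in PP pig 1, held 33.6% of its UMIs as FABP6.

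**Figure D2:**
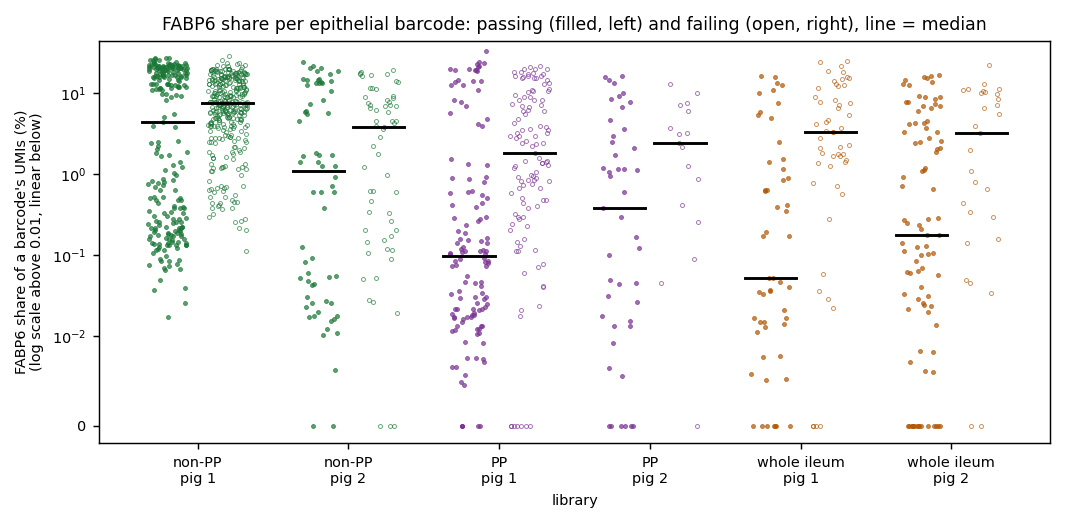
FABP6 share of each epithelial barcode's UMIs (%, log scale above 0.01 and linear below), 1 point per barcode, for barcodes that passed the thresholds (filled, left of each pair) and those that failed (open, right), with the median as a black line. Passing cells spread from 0 to 33.6% and split into low and high cells, and the median of failing barcodes lies above that of passing ones in all 6 libraries.

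To describe which epithelial cells carried each gene, the 616 cells were clustered with the 9 genes left out, which gave 9 clusters, named by leading genes and, where the marker lists allowed, by type. The cluster led by SI, SLC5A1 and MEP1B (111 cells, enterocyte-like) held the highest FABP6 level, 191133 CPM or 19.1% of its UMIs, with FABP2 at 2782, FABP1 at 1644, RBP2 at 458, APOA1 at 274, MTTP at 123 and APOA4 at 106. Of these cells 93 came from non-PP pig 1 and 17 from PP pig 1, so the cluster is mostly 1 library. APOA4 in this cluster stood at 32.4 CPM in non-PP pig 1 and 421 in PP pig 1, so its summed level is not typical of either. The cluster led by CPO, GSTA2 and DPEP1 (30 cells, 15 of them from non-PP pig 2 and none from non-PP pig 1) had a like profile, with FABP6 at 156040, FABP2 at 1120, FABP1 at 1065 and APOA4 at 140. It held APOA4 in 66.7% of cells, against 12.6% in the SI-led cluster. The SI-led cells were almost all from pig 1 and the CPO-led cells mostly from libraries labelled pig 2. A difference between these clusters and one between pigs or libraries cannot be told apart here. The cluster led by SLPI, LPL and PLIN2 (99 cells from all 6 libraries) stood lower, at 39041 for FABP6 and 299 for FABP2.

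In 5 of the remaining clusters FABP6 was low but not absent. The OLFM4-led cluster (122 cells, crypt-like) gave 2070 CPM, the MUC2 and TFF3 cluster (105 cells, goblet-like) 2068, the BPI and RETNLB cluster (30 cells) 2444, the GUCA2B and BEST4 cluster (10 cells, BEST4-like) 1360 and the CHGA and PYY cluster (46 cells, enteroendocrine-like) 738. For comparison, the other passing cells stood at 66.8 to 2203 CPM, with the highest value in non-PP pig 1 and the next, 461, in non-PP pig 2. Non-PP pig 1 gave 66 of the 105 goblet-like and 16 of the 46 enteroendocrine-like cells. It gave only 11 of the 122 cells of the OLFM4-led cluster, whose FABP6 level ran from 988 to 3134 CPM over the 6 libraries. A cluster of 63 cells led by leukocyte genes such as TRDC and CORO1A, 49 of them with a PTPRC UMI, was left unnamed and stood higher, at 34097.

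APOA1 had a different pattern from the rest of the group. Its level was highest in the enteroendocrine-like cluster, the hormone-making cells of the epithelium, at 2615 CPM with a UMI in 95.7% of 46 cells, against 274 in the SI-led cluster. FABP1 and FABP2 were at 14.4 and 7.20 in the same enteroendocrine-like cells, and RBP2 gave 1 UMI there. The split was repeated with CHGA alone, the granule protein of those cells, a choice made after the clusters were seen and given as a description. Passing epithelial cells with at least 2 CHGA UMIs had APOA1 at 2942 CPM in non-PP pig 1 (16 cells), 1629 in non-PP pig 2 (8 cells), 2621 in PP pig 1 (11 cells), 1989 in PP pig 2 (2 cells), 1841 in whole ileum pig 1 (3 cells) and 2798 in whole ileum pig 2 (6 cells). Cells with no CHGA UMI stood at 161, 41.9, 41.0, 23.5, 20.2 and 34.4 in the same order. The CHGA cells were thus higher in 6 of 6 libraries with no overlap, and in PP pig 2 1 of the 2 cells carried all 21 UMIs. FABP6 went the other way, from 94.7 to 1560 CPM in CHGA cells and from 20379 to 112022 in cells without CHGA. Among failing barcodes inside the gate only 1, in non-PP pig 1, held at least 2 CHGA UMIs. In failing barcodes with no CHGA UMI, APOA1 stood at 208 and 71.7 CPM in non-PP, 93.5 and 117 in PP, and 132 and 203 in whole ileum, above the passing cells with no CHGA UMI in 6 of 6 libraries, a description with no test.

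FABP1 showed a second exception. Beside the 2 enterocyte-rich clusters it was high in the 10 BEST4-like cells, at 3122 CPM with a UMI in 100% of them, while FABP2 stood there at 28.6. Goblet-like cells held FABP1 at 451 CPM with a UMI in 69.5% of cells, against 66.3 for FABP2. Split by BEST4 itself, an ion channel gene, FABP1 in cells with at least 2 BEST4 UMIs was 548 in non-PP pig 1 (2 cells), 3088 in PP pig 1 (2 cells), 1421 in PP pig 2 (1 cell), 4383 in whole ileum pig 1 (4 cells) and 4764 in whole ileum pig 2 (1 cell). Cells without BEST4 gave 889, 480, 288, 240 and 150 in those libraries, so BEST4 cells were higher in 4 of 5 and lower in non-PP pig 1. Non-PP pig 2 had no such cell. With so few cells per library these levels carry no test.

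**Figure D3:**
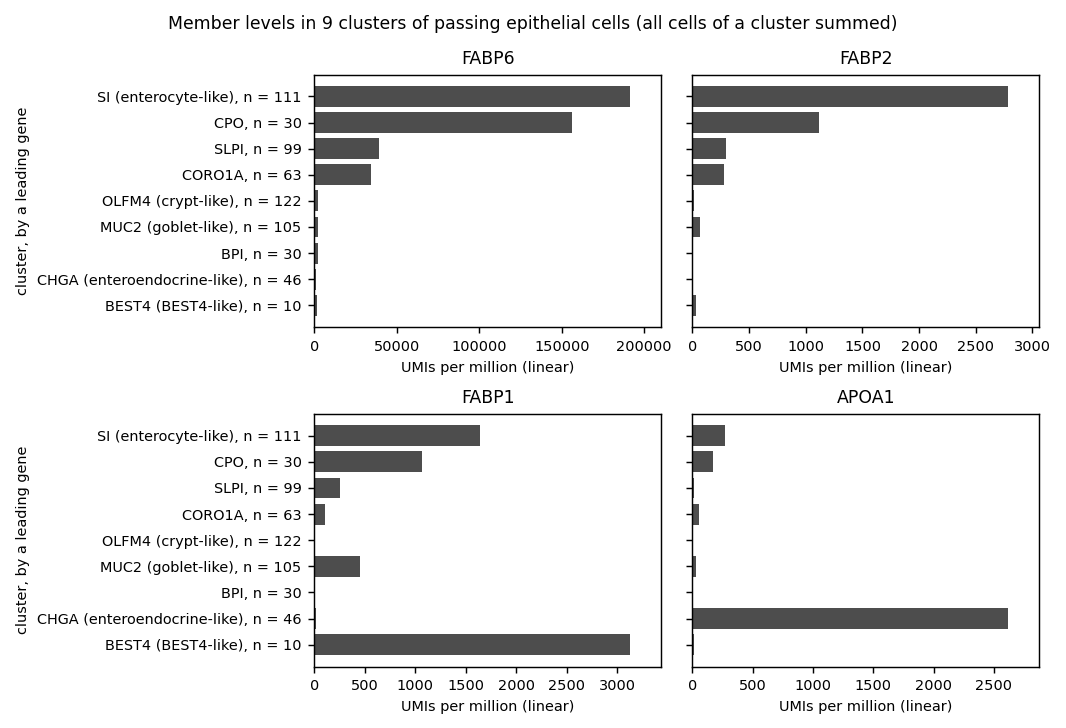
Levels of FABP6, FABP2, FABP1 and APOA1 (CPM, linear axes from 0) in 9 clusters of passing epithelial cells, all cells of a cluster summed, with n cells beside each name. FABP6 and FABP2 peak in the SI-led and CPO-led clusters, FABP1 is highest in the 10 BEST4-like cells at 3122 and APOA1 in the 46 enteroendocrine-like cells at 2615.

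**Figure D4:**
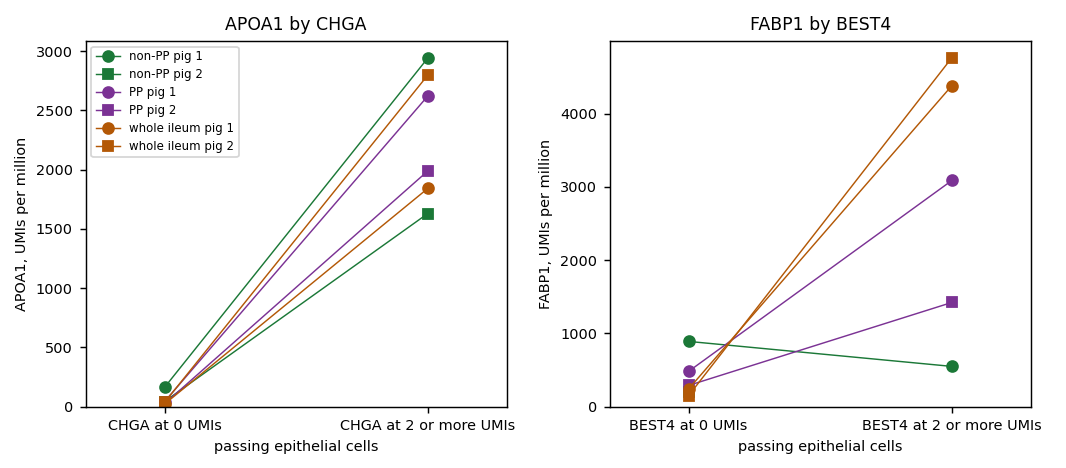
APOA1 in passing epithelial cells with 0 or at least 2 CHGA UMIs (left) and FABP1 in cells with 0 or at least 2 BEST4 UMIs (right), in CPM from 0, with each line joining the 2 groups of 1 library. APOA1 is higher in CHGA cells in all 6 libraries, and FABP1 is higher in BEST4 cells in 4 of 5 libraries.

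The genes most like each member were sought over cells thinned to the UMI minimum of a passing cell, as the mean Spearman rho over the 5 libraries with at least 50 cells (571 cells), among genes seen in at least 10% of them. These are correlations across cells of the same library, which share free RNA, and they are given as descriptions. FABP6 was most like SLC51B (0.68), a subunit of the basolateral bile acid exporter, then CCL25 (0.63), a gut chemokine, and FABP2 (0.63). FABP2 was most like FABP6, SLC51B (0.56) and TMIGD1 (0.49). RBP2 was most like DPEP1 (0.34), ASS1 (0.32) and TMIGD1 (0.29), and FABP1 most like PRR13 (0.38), LGALS3 (0.35) and ISG12(A) (0.35). APOA1 was most like HEPACAM2 (0.38), then TMEM176B (0.26) and FXYD3 (0.25), and its mean rho with FABP6 was -0.10. APOA4, APOB, MTTP and FGF19 were seen in too few thinned cells for this measure.

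Whether the presence of Peyer's patches goes with the level of these genes was asked by summing the counts of passing epithelial cells per library (edgeR quasi-likelihood test, 3 dissections in 1 fit, Benjamini-Hochberg adjusted p over 6892 genes). Point estimates were lower in PP than in non-PP for 6 of the 7 members that passed the filter on low counts, but none was called at an adjusted p of 0.05. The log2 difference was -2.43 ± 0.75 (SE) for FABP2 (adjusted p = 0.841) and -1.52 ± 0.45 for FABP6 (adjusted p = 0.789), and these 2 were the members with an unadjusted p under 0.05, as 4.96% of all tested genes had. APOA4 was the exception at 0.73 ± 0.61 (adjusted p = 0.998). Over all genes 0.029% were called higher and 0% lower, so the fit called almost nothing at 2 libraries a side. DESeq2 called 0 members and 29 genes in all. FABP6, FABP2 and APOA1 were lower in both PP libraries than in both non-PP libraries, 3 of 7 members, where 11.5% of all tested genes had this pattern and 17.2% the opposite one.

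The result turned on the non-PP libraries. With 1 of them left out, non-PP is a single library, which is assumed to vary like the other dissections. Such fits have no spread of their own for non-PP, so only log2 differences are given. Without non-PP pig 1, FABP6 stood at -0.74 and FABP2 at -0.79, and FABP1, MTTP and RBP2 changed sign to 1.01, 0.022 and 0.28. Without non-PP pig 2, FABP6 stood at -2.02 and FABP2 at -3.16. Without PP pig 1, APOA4 changed sign to -0.96.

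Whole ileum against non-PP gave the same picture with larger differences, and shares its non-PP libraries with the comparison above. All 7 members had lower estimates in whole ileum, 5 of them with an unadjusted p under 0.05, as 9.59% of all tested genes had, and 0 were called by edgeR. FABP6 differed by -1.92 ± 0.46 (adjusted p = 0.390), MTTP by -2.79 ± 0.75 (adjusted p = 0.416), FABP2 by -2.67 ± 0.76 (adjusted p = 0.422) and RBP2 by -3.05 ± 1.15 (adjusted p = 0.481), and APOA4 by only -0.12 ± 0.65. Both whole ileum libraries lay below both non-PP libraries for 5 of 7 members, against 17.1% of all tested genes (27.2% in the opposite direction), and 0.029% of genes were called higher and 0% lower. DESeq2 called 1 member, FABP6 (-1.89, adjusted p = 0.00232), and so did edgeR with the pig as a replicate block (-1.79, adjusted p = 0.0456). That block pairs the library labelled whole ileum pig 1 with pig 1, and without this library the blocked value was -1.13 (adjusted p = 0.134). Without the library labelled whole ileum pig 1, FABP6 stood at -1.67, FABP2 at -2.39 and MTTP at -2.66, and 0 members were called. With single libraries left out the value for FABP6 ranged from -2.39 to -1.13, the latter without non-PP pig 1. Fits with 1 non-PP library left have no spread of their own for non-PP, so only log2 differences are given for them.

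The make-up of the epithelial cells moved with these differences, and its part in them was not tested. The summed level of the absorptive enterocyte markers was 4044 and 1363 CPM in non-PP, 1399 and 822 in PP and 682 and 715 in whole ileum, and the crypt and cycling markers ran the other way, at 472 and 1805, 2194 and 2080, and 2326 and 2687. Goblet markers stood at 64422 in non-PP pig 1 and 63646 in PP pig 1 against 7356 to 20285 in the other 4. Leukocyte markers were 1706 and 1338, 923 and 315, and 888 and 384. In cells with at least 2 UMIs of the enterocyte markers, an alternative added after the data were seen, the log2 difference of FABP6 was -1.35 in PP and -1.72 in whole ileum, and 0 members were called. This filter kept most cells, from 41 of 53 in whole ileum pig 1 to 217 of 233 in non-PP pig 1, and is no test of the make-up.

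Other genes of lipid, bile acid and retinoid handling gave 0 calls by edgeR in either comparison. At an unadjusted p under 0.05 there were 2 of 19 lipid, 3 of 6 bile acid and 0 of 5 retinoid genes and 1 of 10 transcription factors in PP, and 9, 3, 0 and 1 in whole ileum. DESeq2 called 0 in PP and, in whole ileum, 1 bile acid gene (SLC10A2) and 1 transcription factor (MAF), named here after their values were seen. Of 19 tested further genes of lipid absorption and chylomicron assembly, 6 had estimates above 0 and 13 below in PP against non-PP, with a median log2 difference of -0.53 beside -0.0066 over all genes. AGPAT2, an acyltransferase of lipid synthesis, was at -0.53 ± 0.26 and P4HB, the small subunit of the MTTP complex, at 0.27 ± 0.34. All 6 tested bile acid genes were below 0 (median -0.76 in PP and -0.81 in whole ileum), with SLC51B at -0.71 ± 0.35 and SLC51A, its partner, at -0.96 ± 0.39 in PP. Of 5 tested retinoid genes 4 were below 0 in each comparison, with ALDH1A1, a retinal dehydrogenase, at -0.59 ± 0.30 and RDH11, a retinol dehydrogenase, at -0.11 ± 0.32 in PP. Of 10 tested enterocyte transcription factors 7 were below 0 in PP and 10 in whole ileum, and KLF4 and KLF5 stood at -0.28 ± 0.41 and 0.13 ± 0.27 in PP.

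Epithelial barcodes that failed the thresholds carried more FABP6, MTTP, FABP1, FABP2 and RBP2 than those that passed, and no call was made for APOA1 and APOA4. Most of the 622 failed on the mitochondrial limit, from 45 of 52 in whole ileum pig 1 to 60 of 61 in non-PP pig 2, and their median depth was 2194 to 4342.5 UMIs. Levels in this comparison are CPM over non-mitochondrial UMIs. FABP6 rose from 115703 in passing to 163921 in failing barcodes in non-PP pig 1, from 51824 to 93002 in non-PP pig 2, from 35532 to 94423 and 26819 to 53715 in PP, and from 21160 to 85652 and 27768 to 75428 in whole ileum. It was higher in failing barcodes in 6 of 6 libraries. MTTP did the same, from 69.9 to 157, 17.8 to 65.8, 22.0 to 88.6, 11.4 to 43.6, 6.99 to 68.2 and 7.61 to 20.7 in that order, as did RBP2. Some of these levels rest on very few UMIs. In PP pig 2, failing barcodes held 2 UMIs of MTTP and 1 of RBP2, and passing cells 6 and 4. In whole ileum pig 2, failing barcodes held 2 MTTP UMIs and passing cells 7.

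In a fit of the 12 sums with the library as a block (edgeR quasi-likelihood test, adjusted over 4928 genes), 5 of 7 tested members were called higher and 0 lower, where 16.8% of all tested genes were called higher and 15.8% lower (32.7% in either direction). The log2 differences were 1.48 ± 0.22 for MTTP (adjusted p = 8.1e-05), 1.06 ± 0.15 for FABP6 (adjusted p = 4.2e-05), 1.04 ± 0.27 for FABP1 (adjusted p = 0.00663), 0.75 ± 0.21 for FABP2 (adjusted p = 0.0108) and 0.71 ± 0.22 for RBP2 (adjusted p = 0.0205). FABP1 and FABP2 were higher in failing barcodes in 5 of 6 libraries, with non-PP pig 1 slightly lower for each. APOA4 was not called, at 0.27 ± 0.27 (adjusted p = 0.469), nor APOA1, at -0.017 ± 0.25 (adjusted p = 0.974). Without a replicate block, that is with the library left out of the model, the call was lost for all 5 members, although the estimates stayed between 0.41 for FABP2 and 1.64 for MTTP. The 6 libraries come from only 2 pigs, and these p-values do not measure the spread between pigs.

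The calls of FABP6, MTTP and FABP1 held without any 1 library. FABP2 passed the threshold no longer without PP pig 1 (0.59, adjusted p = 0.0581 by edgeR) or without the library labelled whole ileum pig 1 (0.56, adjusted p = 0.0519), and RBP2 no longer without whole ileum pig 2 (0.59, adjusted p = 0.0523) or with PTPRC cells left out (0.47, adjusted p = 0.0766). With the gate lowered to 1 UMI each of EPCAM and KRT8, the 2 apolipoproteins were called higher too, APOA4 at 1.37 (adjusted p = 0.00865 by edgeR) and APOA1 at 0.72 (adjusted p = 0.0281).

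**Figure D5:**
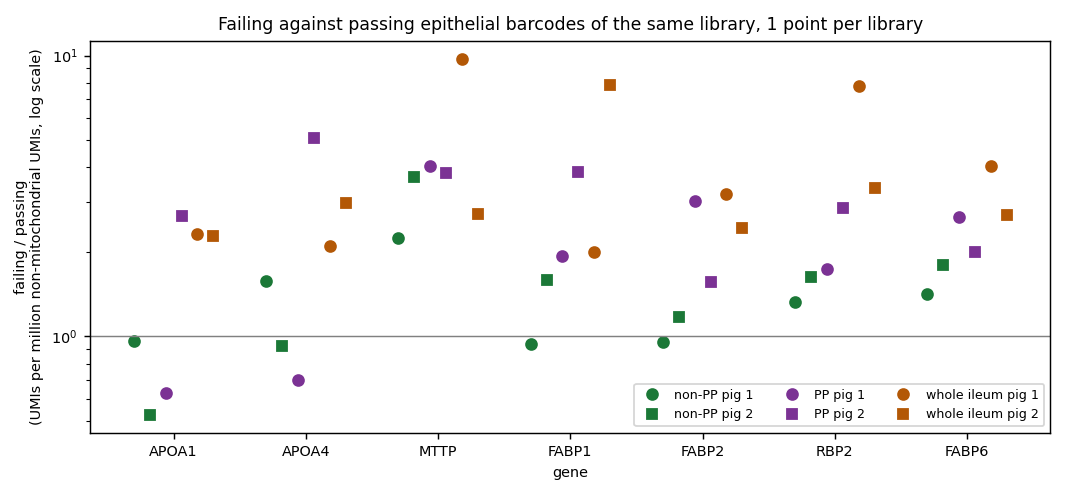
Ratio of failing to passing epithelial barcodes of the same library (CPM over non-mitochondrial UMIs, log scale, grey line at 1) for 7 genes, 1 point per library. FABP6, MTTP and RBP2 lie above 1 in 6 of 6 libraries, and APOA1 lies below 1 in 3 and above 1 in 3. Failing barcodes of PP pig 2 held only 2 MTTP UMIs and 1 RBP2 UMI, and those of whole ileum pig 2 only 2 MTTP UMIs.

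The kinds of cells also differed between passing and failing barcodes. The summed level of the enteroendocrine markers was 1830 to 27126 CPM in passing cells and 7.79 to 115 in failing ones, and that of goblet markers was 7356 to 64422 and 919 to 15993, lower in failing barcodes of each library. Absorptive enterocyte markers were higher in failing barcodes in each library, 2129 to 6063 against 682 to 4044. The part of these differences in the result was not tested. The share of gated barcodes that passed also differed with FABP6 content: of barcodes with at least 1% FABP6, 29.6% and 47.8% passed in non-PP, 29.9% and 64.5% in PP, and 25.9% and 67.9% in whole ileum, against 75.8% and 56.9%, 67.8% and 80.6%, and 76.5% and 82.1% of barcodes under 1%. The passing share was lower for the FABP6-rich barcodes in 6 of 6 libraries, a description with no test. The exact 95% binomial intervals did not overlap in non-PP pig 1 (25.4% to 34.1% against 67.5% to 82.8%), PP pig 1 and whole ileum pig 1. These intervals count barcodes of 1 library, cover counting error only and do not measure the spread between pigs. Among barcodes with at least 2 enterocyte marker UMIs the difference between failing and passing barcodes was as large, with FABP6 at 1.04 (adjusted p = 1.3e-05), MTTP at 1.44 (adjusted p = 8.4e-05) and the same 5 genes called by edgeR. This filter kept most barcodes, from 41 of 53 to 217 of 233 passing and from 18 of 29 to 321 of 348 failing per library. It is therefore no test of the part of the kinds of cells.

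Further genes of these pathways were also higher in the failing barcodes. Over all genes tested by edgeR in this fit, 16.8% were called higher and 15.8% lower. All 6 tested bile acid genes were called higher, with SLC10A2, the apical bile acid importer, at 1.34 ± 0.28, SLC51A at 1.01 ± 0.15, the nuclear receptors NR1I2 at 0.89 ± 0.16, VDR at 0.84 ± 0.20 and NR1H4 (the bile acid receptor FXR) at 0.80 ± 0.17. Of 15 tested lipid genes 7 were called higher and 1 lower. They included SLC27A4, a fatty acid transporter, at 1.33 ± 0.17, SOAT2 at 0.96 ± 0.24 and DGAT1 at 0.95 ± 0.15, which esterify cholesterol and diacylglycerol, PLIN3 at 0.91 ± 0.16 and NPC1L1, the cholesterol importer, at 0.90 ± 0.19; ACAT2 was lower at -0.63 ± 0.20. Of 5 retinoid genes 2 were higher, RETSAT at 0.86 ± 0.18 and ISX at 0.81 ± 0.19. Of 7 transcription factors 3 were higher, MAF at 0.91 ± 0.25, HNF4G at 0.72 ± 0.15 and HNF4A at 0.46 ± 0.12. The median log2 difference was 0.86 for the bile acid genes and 0.26 for the lipid genes, beside -0.0023 over all genes. DESeq2 called 5 of the bile acid genes, 6 of the lipid genes, 2 of the retinoid genes and 2 of the transcription factors. The share of all genes that DESeq2 called in this comparison is not given, so these calls have no background. SOAT2, ACAT2 and MAF were not among these calls.

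Barcodes rich in APOA4 were more often outside the epithelial gate than inside it, but so were barcodes in general. Outside the gate there were 34770 passing and 15584 failing barcodes, against 616 and 622 inside. As a share of barcodes, those rich in APOA4 were thus more frequent inside the gate. Over the 6 libraries 13 barcodes of at least 500 UMIs held 10 or more APOA4 UMIs, and 9 of these were not epithelial by the gate. Of the 9, 7 had no KRT8 UMI, 4 had at least 2 EPCAM UMIs, 7 exceeded the mitochondrial limit and 9 had no RBP2 UMI. They were nevertheless rich in absorptive enterocyte markers, with 7 to 61 UMIs, and in APOA1, with 12 to 216 UMIs, and APOA1 exceeded APOA4 in 7 of the 9. The highest barcode, in PP pig 1, passed the thresholds with 7586 UMIs and held 188 UMIs of APOA4, 216 of APOA1, 5 of APOB, 14 of FABP1, 1 of FABP2 and 241 of FABP6, or 3.18% FABP6. This barcode alone held 85.8% of the APOA4 UMIs of the other passing cells of its library. The 4 barcodes inside the gate had APOA1 below APOA4 in each case, and the one with most APOA4, also in PP pig 1, held 76 UMIs of APOA4 and 1396 of FABP6 (14.8%).

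Much of each gene's RNA was counted on barcodes that were not called cells. Of all FABP6 UMIs in the 6 libraries, 28.3% were in passing epithelial cells, 22.4% in failing epithelial barcodes, 3.61% in the other passing cells and 25.8% in barcodes of 1 to 100 UMIs. Non-PP pig 1 gave 841319 of these 1289631 UMIs, and the passing epithelial share ran from 21.0% in whole ileum pig 1 to 44.6% in whole ileum pig 2. The share in the lowest barcodes, those of 1 to 100 UMIs, was 20.3% to 28.6% for the 8 genes other than FGF19. Passing epithelial cells held 29.3% of FABP1 but 3.02% of APOB UMIs. These shares leave out barcodes of intermediate depth and failing barcodes outside the gate. Per library, the latter held 15.8% (PP pig 2) to 48.3% (non-PP pig 2) of APOB UMIs. For APOA4 they held 10.2% (PP pig 1) to 43.1% (non-PP pig 2). For FABP6 they held 12.3% (PP pig 1) to 20.2% (non-PP pig 2). Of the UMIs of all genes, the lowest barcodes held 4325448 of 24664414 in non-PP pig 1, 4099395 of 21134542 in non-PP pig 2 and 4695519 of 40111934 in PP pig 1. In the lowest barcodes FABP6 stood at 55450 and 6186 CPM in non-PP, 8045 and 2040 in PP, and 3377 and 2989 in whole ileum, so that non-PP pig 1 lay far above the rest and non-PP pig 2 lay below PP pig 1. APOA4 stood at 29.4 and 52.4 in non-PP, 14.7 and 6.64 in PP and 12.01 and 12.2 in whole ileum, and APOB at 6.94 and 18.8, 2.77 and 2.49, and 7.09 and 4.77.

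Set against FABP6 of the same barcodes, APOA4 and APOB were relatively higher in the lowest barcodes than in the cells of most libraries. They were not alone in this. APOA4 came to 0.227 and 0.742 UMIs per 1000 FABP6 UMIs in passing epithelial cells of non-PP and 0.530 and 8.48 in the lowest barcodes. In PP the values were 2.38 and 0.640 in cells and 1.83 and 3.25 in the lowest barcodes, and in whole ileum 1.32 and 1.25 against 3.56 and 4.09. The ratio was thus higher in the lowest barcodes than in passing epithelial cells in 5 of 6 libraries, PP pig 1 being the exception. That exception rested on 1 cell, without which PP pig 1 stood at 1.03 in cells. In failing barcodes outside the gate the APOA4 ratio was above that of the lowest barcodes in each library. It was 2.04 and 13.6 there in non-PP, 2.45 and 7.04 in PP, and 6.58 and 10.4 in whole ileum. For APOB the ratio was 0.0409 and 0.106 in cells of non-PP against 0.125 and 3.04 in the lowest barcodes. FABP2 stood at 15.5 and 7.34 in cells against 15.1 and 8.99 in the lowest barcodes of non-PP, at 8.58 and 4.69 against 13.5 and 10.2 in PP, and at 7.60 and 7.99 against 8.73 and 10.7 in whole ileum. APOA1 came to 2.61 and 3.90 in cells of non-PP against 4.22 and 16.1 in the lowest barcodes. In PP pig 1 it came to 5.47 against 6.78. MTTP in non-PP came to 0.604 and 0.344 in cells against 0.617 and 0.946. RBP2 in non-PP went the other way, at 2.52 and 0.662 in cells against 2.29 and 0.552.

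Free RNA of PP and non-PP was compared in the same kind of fit (9860 genes tested, edgeR quasi-likelihood test). All 8 tested members had lower estimates in PP, and 2 were called lower, APOA4 at -2.01 ± 0.38 (adjusted p = 0.0251) and APOB at -2.34 ± 0.51 (adjusted p = 0.0379), where 4.36% of all tested genes were called lower and 6.83% higher (11.2% in either direction). Both PP libraries lay below both non-PP libraries for APOA1, APOA4, APOB and MTTP, 4 of 8 members, against 22.2% of all genes (33.4% in the opposite direction). FABP6 differed by -2.81 ± 1.07 (adjusted p = 0.141) and RBP2 by -3.35 ± 1.52 (adjusted p = 0.199). These estimates rested on non-PP pig 1 for the binding proteins: without it FABP6 was at -0.30, FABP2 at 0.22 and RBP2 at 1.09. With the pig as a replicate block 6 of 8 members were called lower, FABP6 (-2.48, adjusted p = 0.0468), MTTP, FABP1 and APOA1 among them. More of all tested genes were called with this block too, as counted in the last section for both directions together. The share of all genes called lower with the block is not given, so the 6 calls lack a matching background. They are not read as particular to the members. This block also pairs the library labelled whole ileum pig 1 with pig 1, which its Y-linked counts put in doubt. A blocked value without that library is not given.

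The calls of APOA4 and APOB were lost when either PP library or either whole ileum library was left out, with adjusted p between 0.0520 and 0.204 by edgeR. APOB also lost its call without non-PP pig 2 (adjusted p = 0.0604), whereas APOA4 did not. Fewer epithelial cells in the suspension and less RNA released per cell cannot be told apart in this measure. Of the further lipid genes in free RNA, 16 of 21 had an unadjusted p under 0.05 by edgeR, as 29.8% of all tested genes had. DESeq2 called 13. The share of all genes that DESeq2 called in free RNA is not given, so its counts here have no background. By edgeR 3 were called lower, SOAT2 at -2.66 ± 0.57, APOC3 at -2.23 ± 0.38 and DGAT1 at -1.90 ± 0.34, and PLIN2, the lipid droplet coat gene, was called higher at 1.68 ± 0.26. Of 6 bile acid genes and 6 retinoid genes 0 were called by edgeR, 5 and 4 had an unadjusted p under 0.05, and DESeq2 called 2 of each, NR1H4 and NR1I2, and DHRS3 and SCARB1 (adjusted p = 0.153 for SLC51B and 0.126 for SLC51A, 0.0866 for DHRS3 and 0.30 for ALDH1A1). KLF4 and KLF5, the most abundant of the tested enterocyte transcription factors, were at -1.52 ± 0.86 and -1.33 ± 0.58.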

How the data were processed

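The deposited matrices hold unnormalized counts of UMIs for 10x 3' single-cell libraries, which the authors made with Cell Ranger (4.0.6 per the processing notes in the labels) on Sscrofa11.1 with Ensembl release 97. Each matrix pools the 4 sequencing runs of a library and precedes the study's ambient RNA removal and its quality and doublet filters. Cells were chosen by the thresholds in the report with mitochondrial UMIs from 13 genes. Scrublet (rate 0.07, score 0.25) marked doublets, which were kept. Of 25880 genes 977 were named from a gene table and 7170 had no symbol. Counts were summed per library and class and tested with edgeR 4.0.16 (TMM, filterByExpr, quasi-likelihood test, Benjamini-Hochberg) in R 4.3.3; the SE is the log2 difference divided by the root of F. The fits were tested on simulated data. Alternatives were DESeq2 1.42.0, RLE factors, no filter on low counts, the replicate block, leaving out each library, no mitochondrial genes, a gate of 1 UMI, and cells without PTPRC UMIs or doublets. Cells with at least 2 enterocyte marker UMIs were an alternative chosen after seeing the data. Clusters came from scanpy 1.11.5 and leidenalg 0.10.2 (20 components, resolution 0.5).

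The members and gene lists were chosen with earlier results of these data known. Named were the 9 members and, of each further list, the called genes with the largest differences or otherwise its most abundant tested genes. Same-numbered libraries are from the same pig by the labels, and their deviations from the group mean correlated at 0.45 (non-PP and PP), 0.068 (non-PP and whole ileum) and 0.024 (PP and whole ileum) over 6892 genes. P-values of the comparisons between dissections measure the spread between 2 libraries per dissection, from 2 pigs by the labels, which for whole ileum the Y-linked counts put in doubt. Those of failing against passing barcodes measure the spread of paired differences over the 6 ileal libraries of these 2 pigs. A result for a listed transcription factor is not reported here.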

Additional observations from a re-analysis of the deposited data

Results flagged for a closer look

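APOA1 moved in opposite directions in the libraries of non-PP and whole ileum. The level in failing minus that in passing epithelial barcodes, in CPM over non-mitochondrial UMIs, was -11.2 in non-PP pig 1 and -95.6 in non-PP pig 2, but 97.1 in whole ileum pig 1 and 151 in whole ileum pig 2. In 1 fit with the library as a block the difference between whole ileum and non-PP was 1.58 on the log2 scale, with an adjusted p of 0.216 by edgeR's quasi-likelihood test, and so was not called. In PP the levels went from 194 in passing to 123 in failing barcodes in pig 1 and from 64.8 to 174 in pig 2, so both directions occurred within 1 dissection. In barcodes with no CHGA UMI, APOA1 was higher in failing barcodes in 6 of 6 libraries, in CPM over all UMIs. Depth differed between these groups, with medians of 2841 UMIs in failing and 8655 in passing barcodes of non-PP pig 1. A CHGA count of 0 thus excludes less in failing barcodes.

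Genes of the group also gave UMIs in the blood libraries, which hold no epithelial cell by the gate. In passing PBMC of pig 1 there were 24 UMIs of FABP2 and 20 of FABP6, and in those of pig 2 there were 23 and 18. In barcodes of 1 to 100 UMIs, pig 1 had 762 UMIs of FABP6, 13 of FABP2, 7 of APOA1, 6 of FABP1 and 6 of RBP2. Pig 2 had 751 of FABP6, 10 of FABP1, 6 of FABP2 and 4 of APOA1. Of these FABP6 UMIs, 60.1% in pig 1 and 57.0% in pig 2 were on barcode sequences that held at least 100 FABP6 UMIs in an ileal library, which were 0.261% and 0.244% of the barcodes.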

How the results depend on the processing

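Each dissection had 2 libraries, and the number of calls moved with the fit. The cause was not tested. Of 7 members, PP against non-PP had 0 called (3 with no filter on low counts, 0 to 4 without single libraries) and whole ileum against non-PP 0 (5 with no filter, 1 with the replicate block, 1 by DESeq2, 0 to 6 without single libraries). Over all genes the 2 calls in PP became 171 with no filter, 36 with the replicate block, 8 with a gate of 1 UMI, 29 by DESeq2, 0 without PTPRC cells, 0 in barcodes with 2 enterocyte UMIs and 0 to 148 without single libraries. The 2 calls in whole ileum became 422, 63, 0, 56, 0, 0 and 0 to 734 in that order, and 70 with the replicate block and whole ileum pig 1 left out, which also called 0 members and was chosen after seeing the data. Failing against passing had 5 members called, 0 with no replicate block and 4 to 5 without single libraries, and 1611 genes, 674 with no replicate block and 1084 to 1681 without single libraries. In the barcodes of 1 to 100 UMIs 2 members were called, 5 with no filter, 6 with the pig as a replicate block and 0 to 7 without single libraries, and 1103 genes, 1715 with the block, 550 in barcodes of 1 to 10 UMIs and 67 to 1642 without single libraries.

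Log2 estimates that changed sign were APOA4 in whole ileum (-0.12; 0.0011 with a gate of 1 UMI, 0.16 without PTPRC cells, 0.074 in barcodes with 2 enterocyte UMIs, 0.53 with the replicate block and whole ileum pig 1 left out) and APOA1 in failing barcodes (-0.017; 0.087 with no replicate block, 0.72 with a gate of 1 UMI, 0.078 without PTPRC cells, 0.015 in barcodes with 2 enterocyte UMIs, 0.10 by DESeq2). Without single libraries the estimates in PP ranged from -0.96 to 1.38 for APOA4, -1.26 to 1.01 for FABP1, -2.12 to 0.022 for MTTP and -4.56 to 0.28 for RBP2. In whole ileum they ranged from -0.32 to 0.12 for APOA4 and -1.74 to 0.51 for FABP1, in failing barcodes from -0.24 to 0.23 for APOA1, and in barcodes of 1 to 100 UMIs from -4.54 to 0.22 for FABP2 and -5.96 to 1.09 for RBP2. FABP6 kept its sign under every alternative in all 4 comparisons.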
